A study of Mus musculus with 27 samples.

Results

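Interleukin-1, TNF and the inflammasome form the first line of cytokine signaling after tissue injury, and 9 of their genes were followed here in mouse muscle after volumetric muscle loss (VML), here the surgical removal of a large volume of muscle. The 9 genes, taken by name from the 54532 genes of the expression table, were the ligands Il1b and Il18, the antagonist Il1rn, the receptors Il1r1 and Il1r2, the cytokine Tnf, and the sensor Nlrp3, adaptor Pycard and protease Casp1 of the inflammasome. RNA with poly(A) tails was sequenced from 27 tibialis anterior muscles of C57BL/6 male mice, 8 weeks old. There were 5 muscles without injury (no injury control) and 5, 6, 6 and 5 muscles explanted 3, 7, 14 and 21 days after 40% of the muscle was excised, with no other treatment, transgene or deletion named for any group. No sham-operated group was analyzed here, and the sources differ on whether 1 or both legs were operated on, so samples of a group are muscles and may not be separate mice; p-values measure the spread between these samples.

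Il1b, the gene of interleukin-1β, is induced in monocytes, macrophages and neutrophils, and its product is made as an inactive precursor. Nlrp3 senses disturbance of the cell, Pycard (the adaptor ASC) joins it to Casp1, and caspase-1 then cuts the precursors of interleukin-1β and interleukin-18 into their active forms. Il1r1 encodes the receptor that signals for interleukin-1, Il1r2 a decoy receptor that binds it without signaling, and Il1rn an antagonist that occupies Il1r1. Tnf encodes tumor necrosis factor, which shares with interleukin-1 a pathway that ends in the transcription factor NF-kB. Much of the control of this system lies in cutting, release and receptor binding, which RNA levels do not measure.

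The promoters of 5 of the genes are printed here: those of Il1b, Il18, Casp1 and Pycard, whose RNA was higher at day 3, and that of Tnf, whose RNA was not. Each runs from 250 bases before to 50 bases after the RefSeq start of transcription (GRCm38.p6), 5′ to 3′ on the strand of the gene, and all 9 genes had at least 1 such entry (13 in all). Capitals mark matches on either strand to GAGGAA, the core bound by PU.1 and related factors, or to TATAAA, the TATA box. The spans are chr2:129371090-129371389 on the minus strand (Il1b), chr9:50554450-50554749 on the plus strand (Il18), chr9:5298267-5298566 on the plus strand (Casp1), chr7:127993818-127994117 on the minus strand (Pycard) and chr17:35201958-35202257 on the minus strand (Tnf).
Il1b: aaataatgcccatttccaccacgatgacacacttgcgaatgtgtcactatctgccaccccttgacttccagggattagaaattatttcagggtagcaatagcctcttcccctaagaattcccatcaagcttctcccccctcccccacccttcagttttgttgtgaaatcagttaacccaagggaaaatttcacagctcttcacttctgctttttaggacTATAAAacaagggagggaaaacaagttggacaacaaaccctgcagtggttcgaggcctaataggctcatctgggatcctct
Il18: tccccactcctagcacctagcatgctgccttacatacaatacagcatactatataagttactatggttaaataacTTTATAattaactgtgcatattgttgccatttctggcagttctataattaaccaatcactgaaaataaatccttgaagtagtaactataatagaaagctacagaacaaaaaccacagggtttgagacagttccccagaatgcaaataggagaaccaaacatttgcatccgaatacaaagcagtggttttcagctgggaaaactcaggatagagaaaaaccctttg
Casp1: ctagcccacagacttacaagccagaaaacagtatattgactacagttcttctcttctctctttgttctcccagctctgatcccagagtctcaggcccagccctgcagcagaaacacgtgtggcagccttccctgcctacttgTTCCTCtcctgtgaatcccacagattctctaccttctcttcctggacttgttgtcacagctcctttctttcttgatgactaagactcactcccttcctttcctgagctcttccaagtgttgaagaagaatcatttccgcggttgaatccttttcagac
Pycard: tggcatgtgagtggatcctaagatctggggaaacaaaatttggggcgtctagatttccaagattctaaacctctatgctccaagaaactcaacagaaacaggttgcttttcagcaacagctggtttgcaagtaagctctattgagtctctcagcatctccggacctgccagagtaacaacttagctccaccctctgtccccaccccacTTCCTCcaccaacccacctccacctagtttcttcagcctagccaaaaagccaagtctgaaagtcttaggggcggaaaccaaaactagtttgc
Tnf: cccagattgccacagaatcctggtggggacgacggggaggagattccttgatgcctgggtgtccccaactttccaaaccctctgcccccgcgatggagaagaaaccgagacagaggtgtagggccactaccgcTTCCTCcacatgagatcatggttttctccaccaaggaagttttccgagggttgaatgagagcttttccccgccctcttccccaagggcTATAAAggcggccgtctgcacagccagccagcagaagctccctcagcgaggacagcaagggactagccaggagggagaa

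Il1b and Tnf each held a TATAAA match close before the start, at positions -31 and -29, and Il18 held one at -175; 13.6% of all 32851 promoters of this length held at least 1. Casp1, Pycard and Tnf held a GAGGAA match, at positions -108, -42 and -117, as did 28.3% of all promoters. The NF-kB consensus, present in 8.46% of promoters, matched 1 start of Il1r1 and 1 of Nlrp3, and TGANTCA, the AP-1 site (7.81%), matched 1 start of Il1rn. These matches describe the letters in these windows and say nothing of binding.

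Expression was measured as FPKM, a count of fragments divided by gene length and by a size set for each library, so that levels can be set side by side between genes. Between 14376395 and 24436763 reads per sample stood behind the values (median 17398586), recovered from the FPKM and the gene lengths. Of the 9 genes, 7 reached an FPKM of 0.5 in at least 5 samples and entered the fit with limma over 14630 genes on the log2(FPKM + 1) scale, a scale that understates the change of low genes. Il1rn reached it in 4 samples and Nlrp3 in 1, and these 2 were tested by exact permutation tests alone (two-sided, 54 such tests over 9 genes and 6 comparisons; the smallest p possible is 0.00794 for 5 against 5 muscles and 0.00433 for 6 against 5). The muscles did not sort fully by time: 9 of 27 were nearer, over all tested genes, to the mean of another group than to their own, among them day 3 replicate 5, nearest day 7, and day 7 replicate 5, nearest day 3. These 2 of the 9 lay nearest to each other's time points and were left out together in 1 alternative. Day 14 replicates 3 and 6 (nearest day 21) and day 21 replicates 3 and 5 (nearest day 14) lay likewise. Those and the rest of the 9 were left out only 1 at a time, so the choice of the 2 was not forced by this rule. Some results for the 9 genes and some counts for the gene lists are also given without day 3 replicate 5 and day 7 replicate 5, or without day 7 replicate 5 alone, as stated. List counts without these muscles, and those after rescaling, were added after the data were seen.

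All 9 genes were lowly expressed in muscle without injury, with mean FPKM from 0.00420 (Nlrp3) to 0.876 (Il1r1). After VML, 7 of the 9 had their highest mean at day 3; the exceptions were Il1b, with its highest mean at day 7, carried by 1 muscle, and Tnf, with its lowest mean at day 3. At day 3, Il1b, Il18, Il1r1, Pycard and Casp1 were upregulated, 5 of the 7 tested genes, where 23.4% of all tested genes were called higher; 0 of the 7 were called lower, where 19.8% of all tested genes were. Il1rn and Nlrp3 were higher than in every control muscle as well. For days 3, 7, 14 and 21 in turn, the median log2 fold change of the 7 genes was 1.08, 0.66, 0.27 and 0.08, beside medians over all tested genes of 0.01, 0.03, 0.02 and 0.01. The same control muscles entered each of these comparisons. When the FPKM of every muscle was brought to the same sum, 6 of the 7 (Il1r2 as well) were called higher and 0 lower at day 3, but the background moved with them, to 46.9% of all tested genes called higher and 2.20% lower.

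**Figure D1:**
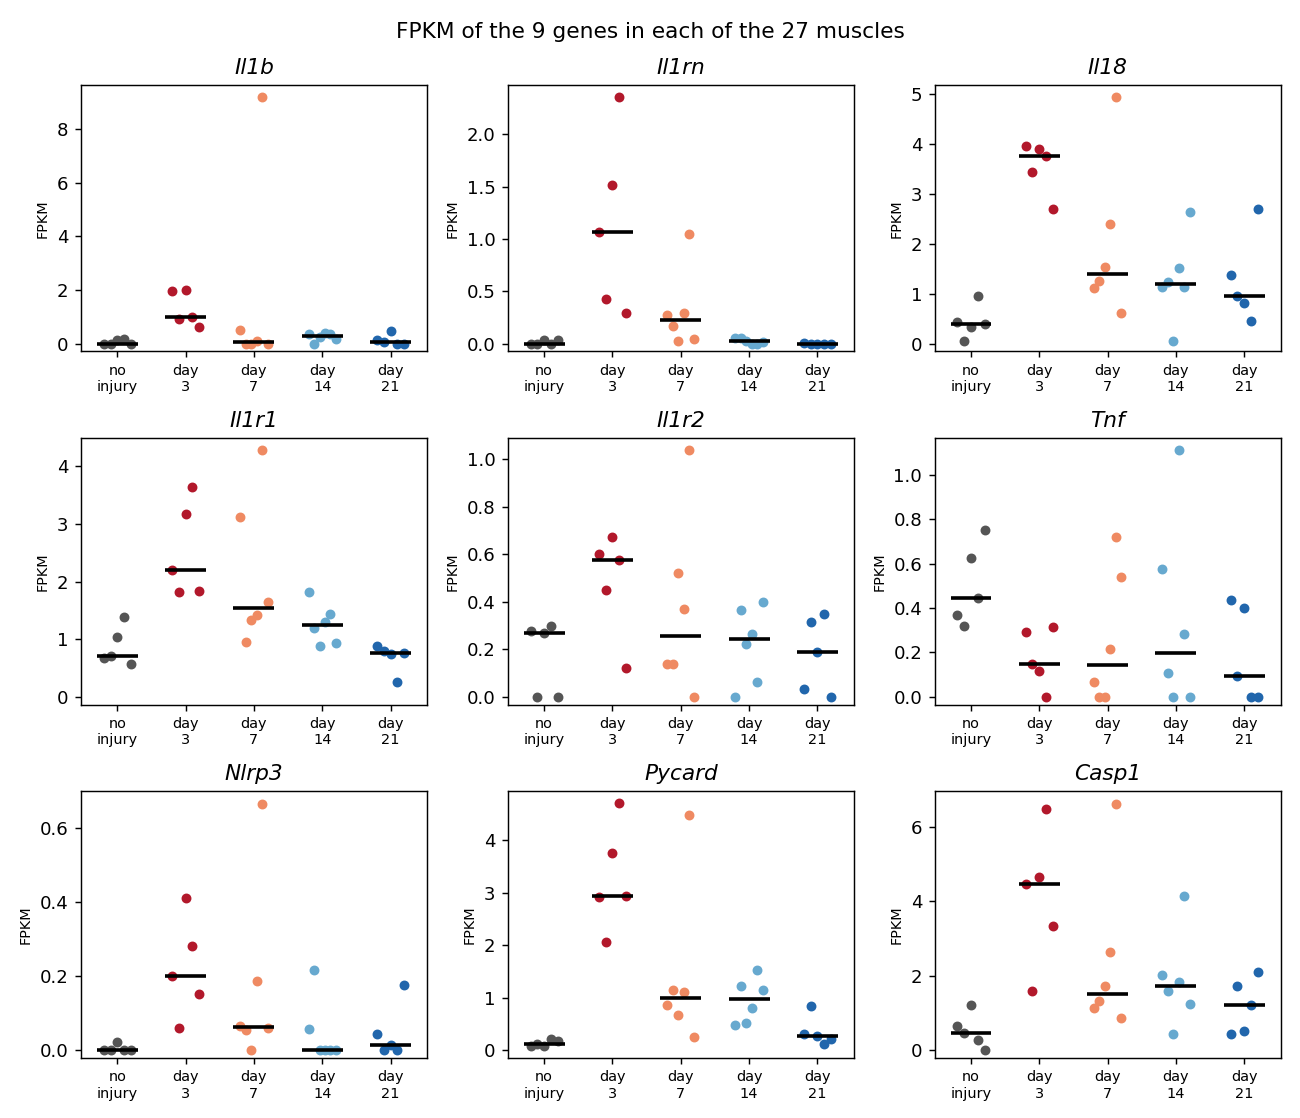
FPKM (linear axis from 0) of the 9 genes in each of 27 muscles by group, with a line at the group median. Day 3 medians stood at 2.93 for Pycard, 4.45 for Casp1 and 3.75 for Il18, and day 7 replicate 5 was the highest point of its group in every panel, at 9.18 for Il1b.

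Il1b (ENSMUSG00000027398, chr2:129364570-129371139, minus strand, GRCm38) was close to absent without injury, with FPKM of 0, 0, 0.134, 0.170 and 0, from 7 reads in all. At day 3 the 5 muscles held 1.96, 0.930, 1.99, 1.01 and 0.616 (276 reads). Every day 3 muscle was above every control muscle, and the mean rose from 0.0609 ± 0.0844 to 1.30 ± 0.632 (SD, n = 5 each). The log2 fold change was 1.08 (SE 0.40, adjusted p = 0.0294, limma), and the exact permutation test gave p = 0.00794. The call was lost, with adjusted p up to 0.0729, when any 1 of control replicates 1, 2 and 5 and day 3 replicates 1 and 3 was left out, if low values were not filtered (0.0670) and with quantile normalization (0.0575). Without day 3 replicate 5 and day 7 replicate 5 the rise was 1.19 on that scale (SE 0.16), with an adjusted p of 1.47e-06. All groups share 1 estimate of the spread in the fit, so day 7 replicate 5 enters the SE of Il1b in every comparison.

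At day 7 the level of Il1b came almost entirely from 1 muscle. Replicate 5 held 9.18 FPKM, the highest value of Il1b in the series, and 95.02% of the 642 day 7 reads, while the other five lay between 0 and 0.527. The day 7 mean of 1.64 ± 3.70 (SD, n = 6) fell to 0.129 ± 0.228 (n = 5) without it. Day 14 muscles ranged from 0 to 0.397 (median 0.303) and 5 of 6 were above the highest control, but the log2 fold change of 0.24 (SE 0.38) was not called (adjusted p = 0.684; exact permutation p = 0.0325). At day 21 the values were 0.124, 0.0788, 0.469, 0 and 0, which overlapped with the controls.

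Il18 (ENSMUSG00000039217, chr9:50554827-50581840, plus strand), whose product acts mainly to raise interferon-γ in lymphocytes, was already detected in every control muscle, at 0.437, 0.0564, 0.331, 0.945 and 0.398 FPKM. The day 3 values were 3.95, 3.44, 3.90, 3.75 and 2.69, all above the highest control and close to each other. The mean rose from 0.433 ± 0.323 to 3.54 ± 0.518 (n = 5 each), a log2 fold change of 1.68 (SE 0.30, adjusted p = 7.87e-05). Il18 was still higher at day 7 (lowest 0.623, median 1.395, highest 4.93; log2 fold change 0.95, SE 0.28, adjusted p = 0.0143), a call that held without replicate 5 of days 3 and 7 (0.72, adjusted p = 0.0450). Means of 1.28 ± 0.830 at day 14 (n = 6) and 1.26 ± 0.869 at day 21 (n = 5) stayed above the control mean with log2 fold changes of 0.61 (SE 0.28) and 0.61 (SE 0.30) that were not called (adjusted p = 0.124 and 0.253). The exact permutation tests gave p = 0.0714 and 0.0397. At day 21 the means of Il18 and Casp1, the highest of the 9 genes, differed by less than their spread.

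Il1rn (ENSMUSG00000026981, chr2:24336853-24351494, plus strand), the receptor antagonist, had 5 reads in the controls together and FPKM of 0, 0, 0.0308, 0 and 0.0370. At day 3 it stood at 1.06, 0.431, 1.51, 2.36 and 0.289, from 714 reads, with every muscle above the controls (exact permutation p = 0.00794). The ratio of the pooled reads per library was 91.8, with a 95% counting interval from 39.2 to 283.6 that covers counting error only. At day 7, 5 of 6 muscles were above the highest control (lowest 0.0212, median 0.222, highest 1.05; exact permutation p = 0.0238), as were 4 of 5 without replicate 5 (exact permutation p = 0.0317). The RNA was near absent again later, with at most 0.0569 FPKM at day 14 and 1 read over the 5 muscles of day 21.

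Ligand and antagonist were compared within each muscle as the log2 ratio of Il1b to Il1rn, with 0.1 added to both. The ratio was 0.36 ± 0.76 in the controls and 0.38 ± 0.88 at day 3 (SD, n = 5 each), a difference of 0.01 (exact permutation p = 0.992). It was 0.11 ± 1.59 at day 7, 1.36 ± 1.06 at day 14 and 0.87 ± 1.03 at day 21. None of the 8 ratio comparisons, 4 for this pair and 4 for the receptors, passed the test (adjusted p from 0.886 to 0.992), and most ratios rest on few reads in 1 of the 2 genes.

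Il1r1 (ENSMUSG00000026072, chr1:40225080-40317257, plus strand), the signaling receptor, had the highest level of the 9 genes in muscle without injury, at 0.673, 0.703, 1.04, 1.39 and 0.569 FPKM. At day 3 it reached 2.21, 1.82, 3.17, 3.64 and 1.84, above the controls in every muscle. The mean rose from 0.876 ± 0.339 to 2.53 ± 0.826 (n = 5 each; log2 fold change 0.90, SE 0.21, adjusted p = 0.00132). Day 7 was higher too (lowest 0.945, median 1.53, highest 4.29; log2 fold change 0.66, SE 0.20, adjusted p = 0.0167). That call was at the threshold without day 7 replicate 5: the adjusted p was 0.0513 without it alone. Without replicate 5 of days 3 and 7 it was 0.0491 (log2 fold change 0.49), and in the fit of the 2 groups alone 0.0714. By day 21 the values of 0.875, 0.803, 0.750, 0.261 and 0.760 had returned to the range of the controls or below it, with a log2 fold change of -0.15 (SE 0.21, adjusted p = 0.741).

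Il1r2 (ENSMUSG00000026073, chr1:40074079-40125231, plus strand), the decoy receptor, was low throughout, with FPKM of 0.275, 0, 0.268, 0.298 and 0 in the controls and 0.603, 0.449, 0.675, 0.575 and 0.123 at day 3. Replicate 5 alone of the day 3 muscles lay within the control range. The log2 fold change of 0.34 (SE 0.16) was not called over all 5 muscles (adjusted p = 0.0899; exact permutation p = 0.0476), and was called at 0.44 without replicate 5 of days 3 and 7 (adjusted p = 0.0121). At day 7 the muscles ranged from 0 to 1.04 and overlapped with the controls, and day 14 and day 21 means of 0.219 ± 0.161 and 0.176 ± 0.159 lay close to the control mean of 0.168 ± 0.154. The log2 ratio of Il1r2 to Il1r1 was -2.07 ± 0.81 in the controls and -2.24 ± 0.57 at day 3, a difference within the spread between muscles (exact permutation p = 0.690).

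Tnf (ENSMUSG00000024401, chr17:35199381-35202007, minus strand) did not follow the other genes. The controls held 0.366, 0.319, 0.624, 0.446 and 0.750 FPKM, from 56 reads, and the day 3 muscles 0.292, 0.149, 0.116, 0 and 0.315, from 30 reads. Every day 3 muscle was thus below the lowest control (exact permutation p = 0.00794), although the log2 fold change of -0.35 (SE 0.19) was not called by limma (adjusted p = 0.131). This separation depended on how samples were scaled: with FPKM rescaled to a common sum, an alternative added after the data were seen, the difference was -0.19 and 3 of 5 muscles lay below the controls (exact permutation p = 0.143).

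Later muscles were scattered for Tnf, and no time point was called in either direction. Day 7 ranged from 0 to 0.718 (median 0.142) and day 14 from 0 to 1.11 (median 0.196), both wider than the controls. Day 21 held 0.434, 0.0917, 0.400, 0 and 0 (log2 fold change -0.35, SE 0.19, adjusted p = 0.295). Per muscle, Tnf rested on 0 to 41 reads.

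Nlrp3 (ENSMUSG00000032691, chr11:59541568-59566956, plus strand), the sensor, was the least expressed of the 9 genes in muscle without injury, with 1 read in 5 muscles. At day 3 it stood at 0.201, 0.0603, 0.411, 0.281 and 0.151 FPKM (104 reads), above the controls in every muscle (exact permutation p = 0.00794). The ratio of pooled reads per library was 66.9, and the single control read left its 95% counting interval wide, from 11.7 to 2666. At day 7, 5 of 6 muscles were above the highest control and 94 of 126 reads were in replicate 5 (exact permutation p = 0.0541); 4 of 6 muscles at day 14 and 2 of 5 at day 21 were at 0.

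Pycard (ENSMUSG00000030793, chr7:127989708-127993867, minus strand), the adaptor, showed the clearest change. In the controls it was at 0.0790, 0.122, 0.0673, 0.214 and 0.1798 FPKM, and at day 3 at 2.93, 2.06, 3.75, 4.70 and 2.93. The groups lay far apart, and the mean rose from 0.132 ± 0.0634 to 3.27 ± 0.997 (n = 5 each), a log2 fold change of 1.89 (SE 0.25, adjusted p = 3.97e-06). All 6 muscles of day 7 (lowest 0.253, median 0.983, highest 4.48) and all 6 of day 14 (lowest 0.473, median 0.968, highest 1.52) were also above the highest control.

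Pycard was the 1 tested gene of the 9 called at day 14, with a log2 fold change of 0.75 (SE 0.24, adjusted p = 0.0288; exact permutation p = 0.00433). This call was lost, with adjusted p up to 0.0763, when any 1 of control replicates 1, 2 and 3 and day 14 replicates 2 and 5 was left out, if low values were not filtered (0.0688), with FPKM rescaled to a common sum (0.0751) and with quantile normalization (0.0676). On day 7 it was higher by 0.92 (SE 0.24, adjusted p = 0.00649), and by 0.65 without replicate 5 of days 3 and 7 (adjusted p = 0.0113). At day 21 the values of 0.312, 0.830, 0.267, 0.123 and 0.212 overlapped with the controls, and the difference was not called (0.23, SE 0.25, adjusted p = 0.651).

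Casp1 (ENSMUSG00000025888, chr9:5298517-5307265, plus strand), the protease, had the highest mean FPKM of the 9 genes at day 3, within the spread of Il18 and Pycard, with 4.45, 1.59, 4.63, 6.48 and 3.33 against 0.652, 0.466, 1.20, 0.271 and 0 in the controls. Every day 3 muscle was above the highest control. The mean rose from 0.517 ± 0.450 to 4.10 ± 1.80 (n = 5 each; log2 fold change 1.71, SE 0.35, adjusted p = 3.38e-04). Day 7 was called higher (lowest 0.858, median 1.52, highest 6.62; log2 fold change 1.02, SE 0.33, adjusted p = 0.0235), a call lost when any 1 of control replicates 4 and 5 and day 7 replicates 4 and 5 was left out (adjusted p up to 0.0744). Without replicate 5 of days 3 and 7 it was 0.75 (adjusted p = 0.0777). At day 14, 5 of 6 muscles lay above the highest control (exact permutation p = 0.0260). The log2 fold change of 0.87 (SE 0.33) was not called (adjusted p = 0.0661), and day 21, at 0.435, 1.71, 0.518, 1.20 and 2.09, overlapped with the controls.

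**Figure D2:**
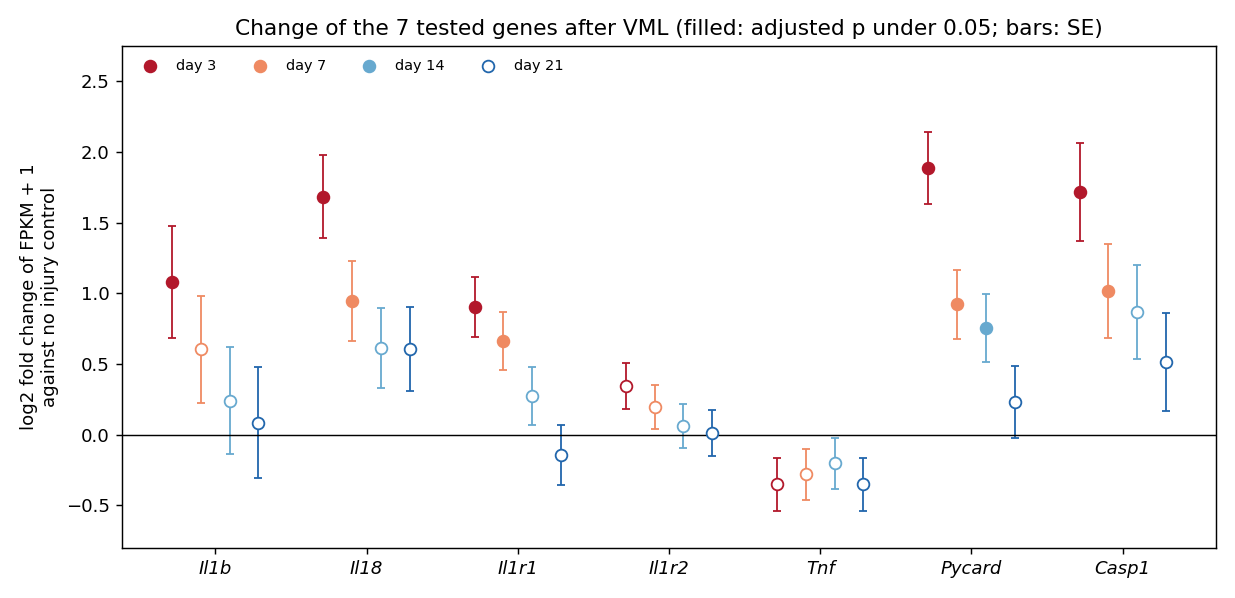
Log2 fold change of FPKM + 1 against no injury control (points, bars are SE) for the 7 tested genes at 4 time points, filled where the adjusted p was under 0.05. There were 5, 4, 1 and 0 filled points in order of time, and the open points of Tnf lay below 0 at each time.

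By time, the calls against the controls thus declined. At day 7, Il18, Il1r1, Pycard and Casp1 were upregulated, 4 of 7 beside 15% of all tested genes called higher, and 0 of 7 were lower, beside 14.4%. At day 14, 1 of 7 was higher (9.02% of tested genes) and 0 lower (11.3%). At day 21, 0 of 7 were called in either direction by limma on log2 FPKM or on the recovered reads with voom, and 0 had an unadjusted p under 0.05, beside 1.74% of all tested genes called higher and 1.69% lower. A change that missed the threshold at day 21 is not shown to be absent: the mean of Il18 was 2.90 times and that of Casp1 2.30 times the control mean, from 89 and 120 reads.

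The decline from day 3 was tested directly. At day 21, Il1r1 (-1.05, SE 0.21, adjusted p = 8.20e-04), Il18 (-1.08, SE 0.30, adjusted p = 0.00914), Casp1 (-1.20, SE 0.35, adjusted p = 0.0131) and Pycard (-1.65, SE 0.25, adjusted p = 7.77e-05) were lower than at day 3 on the log2 scale, 4 of 7 beside 16.2% of all tested genes called lower and 9.23% called higher. The call of Casp1 was lost without day 3 replicate 4 (adjusted p = 0.0521). For Il1b the fold change of -0.99 (SE 0.40) was not called (adjusted p = 0.0661), although every day 21 muscle was below every day 3 muscle (exact permutation p = 0.00794), and its call depended on the setting. It was called without replicate 5 of days 3 and 7 (-1.11, adjusted p = 6.53e-06), with pseudocounts of 0.1 (0.0206) and 0.5 (0.0358), with a common sum (0.0367), with voom (0.0211) and in the fit of the 2 groups alone (0.00296), and was not called under the remaining settings that kept all muscles. Without day 7 replicate 5 alone the fold change stayed at -0.99, with an SE of 0.16 (adjusted p = 3.91e-05). That muscle is in neither group and enters only through the spread that all groups share in the fit. Il1rn fell from 714 reads to 1 (exact permutation p = 0.00794), and Nlrp3 from 104 to 12 with 4 of 5 day 21 muscles below the lowest of day 3 (exact permutation p = 0.0317).

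Between day 3 and day 7, over all muscles, limma called 0 of the 7 tested genes in either direction, beside 0.0478% of all tested genes called lower and 0% called higher. At an unadjusted p under 0.05, Il18, Casp1 and Pycard were lower, and voom on the recovered reads called 0. The exact permutation tests, not adjusted over the 54, gave p = 0.0303 for Pycard, 0.0390 for Il18 and 0.0455 for Il1rn, the last with 4 of 6 day 7 muscles below the lowest of day 3. Without day 3 replicate 5 and day 7 replicate 5, 4 of 7 were called lower at day 7, beside 11.9% of all tested genes called lower and 3.53% called higher. They were Il1b (-1.12, SE 0.16, adjusted p = 1.28e-05), Il18 (-1.04, SE 0.27, adjusted p = 0.00944), Casp1 (-1.01, SE 0.32, adjusted p = 0.0345) and Pycard (-1.26, SE 0.19, adjusted p = 2.92e-05). Since the 2 muscles were left out for lying near the other time point, these values rest on that selection and describe the remaining muscles.

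The day 3 muscles and day 7 replicate 5, high in most of these genes, were also high in monocyte and macrophage, leukocyte and neutrophil markers. Tnf was an exception, with its highest mean in the controls. In bulk muscle, fewer cells of a type and less RNA per cell cannot be told apart. The summed FPKM of 12 monocyte and macrophage markers was 31.5 to 44.7 in the controls and 597 to 3055 in the day 3 muscles. It ran from 83.0 to 2943 in those of day 7, and had come down to 73.1 to 181.0 by day 14 and to 57.7 to 103.0 by day 21. The numbers of these markers called higher on days 3, 7, 14 and 21 were 12, 11, 3 and 0. Without day 7 replicate 5 they were 12, 11, 8 and 1 (C1qa). The sum of 10 neutrophil markers was 0.630 to 4.69 in the controls, 21.8 to 43.8 in the day 3 muscles and 2.26 to 103 in those of day 7, with Ly6g at 3 reads or fewer in each group and S100a8, S100a9 and Csf3r called higher at day 3. Of the 4 tested neutrophil markers, 2 were called higher at day 7, and 1 without day 7 replicate 5. Day 7 replicate 5 had the highest macrophage (2943), leukocyte (168.8) and neutrophil (103.4) sums of its group, and the neutrophil sum was the highest of all 27 muscles. Day 3 replicate 5 had the lowest macrophage (597) and leukocyte (53.4) sums of its group and the highest T and NK cell sum (10.8 against 1.43 to 2.15).

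Markers of the other cells moved less or the other way. The sum of 8 muscle fiber markers was 85767 to 101492 in the controls and 22176 to 64791 at day 3, and 7 of 8 were called lower. Fibroblast markers summed to 41.9 to 94.6 in the controls and 88.5 to 199.4 at day 3 (3 of 6 called higher), endothelial markers to 68.4 to 84.7 and 46.2 to 101.2 (1 of 5 called lower), and 0 of 2 tested T and NK cell markers were called. With the common sum, Dcn, Col15a1 and Pi16 were called higher along with Dpt, Lum and Pdgfra, where 46.9% of all tested genes were. Of the endothelial markers, Kdr was still lower (-0.64, adjusted p = 0.0351) and Pecam1 was called higher (0.80, adjusted p = 0.0336). The part of these cell changes in the levels of the 9 genes was not tested.

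**Figure D3:**
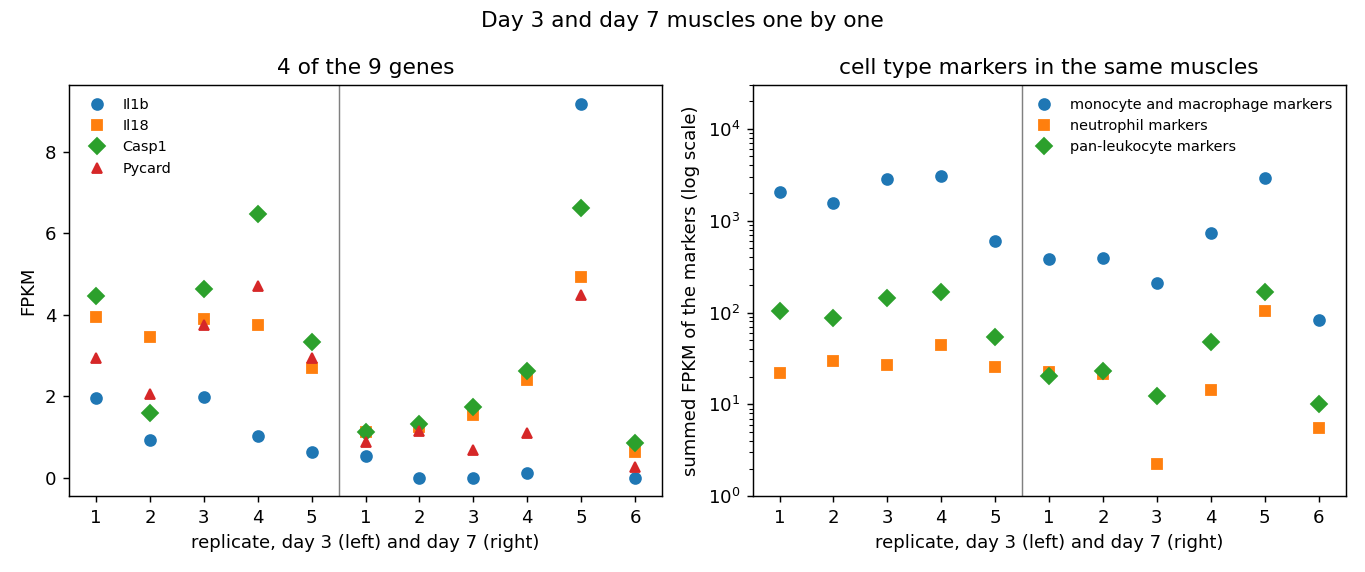
Left, FPKM of Il1b, Il18, Casp1 and Pycard in each muscle of day 3 (5 replicates) and day 7 (6 replicates); right, summed FPKM of 3 marker lists in the same muscles on a log axis. Day 7 replicate 5 stood at day 3 levels or above them in both panels, with 9.18 FPKM of Il1b and a macrophage sum of 2943.

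Among themselves the 9 genes differed in how closely they followed one another. Over the 27 muscles, Pearson's r of log2(FPKM + 1) was 0.85 between Casp1 and Pycard, 0.83 between Il18 and Pycard and 0.76 between Il1b and Pycard, whereas Tnf had r from -0.17 to 0.20 with the other tested genes. The points share the time after injury and the cell content of each muscle, so these values are descriptions. For Il1b, day 7 replicate 5 stood apart at 9.18 FPKM, where the next highest muscle held 1.99. The r values of Il1b were not computed without that muscle. The tested genes most like each one were Cxcl5, a neutrophil chemokine (r = 0.95), Arg1, an enzyme of activated macrophages (0.94), and Ccr1, a chemokine receptor (0.90), for Il1b. They were Clec4a2, Pld4 and E2f1 for Pycard (0.96 each), Myo9b (0.93), Ifi207 and Csf2ra (0.92 each) for Casp1, and Arrb2 (0.91), Fxyd5 and AI467606 (0.90 each) for Il18.

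For the receptors, the nearest genes were Mertk, a receptor by which macrophages take up dead cells (0.93), Mob1a (0.92) and Zfp36l2 (0.91) for Il1r1, and Ncl, Rps6 (0.83 each) and Fuca2 (0.82) for Il1r2. No gene came as close to Tnf, the nearest being Gm13562 (0.67), Nrarp (0.66) and Gm48194 (0.66).

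The other genes of these pathways were read from fixed lists, without the 9 genes, and the counts at day 3 stand beside 23.4% of all tested genes called higher and 19.8% called lower. Of the ligands and antagonists of the IL-1 family, 2 were tested and both were upregulated at day 3. They were Il18bp, whose product neutralizes interleukin-18 (mean FPKM 0.996 ± 0.250 to 3.17 ± 0.395, log2 fold change 1.07, SE 0.19, adjusted p = 9.23e-05), and Il33, an alarmin released from damaged cells (0.958 ± 0.486 to 2.90 ± 0.882, 0.9996, SE 0.19, adjusted p = 1.65e-04). Il33 was still called at day 7 and both were lower at day 21 than at day 3. The median log2 fold change of the 2 at day 3 was 1.03.

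Of 12 tested genes for IL-1 receptors and their signaling, 4 were higher and 3 lower at day 3 (median 0.00), shares that lay near those of all tested genes. Myd88, the adaptor shared with Toll-like receptors, rose from 2.94 ± 0.954 to 8.45 ± 2.23 (log2 fold change 1.26, SE 0.23, adjusted p = 1.13e-04), with Irak3, Irak4 and Il1rl2. Tab2, which links the receptor complex to the kinase TAK1, fell from 21.1 ± 2.46 to 10.1 ± 1.92 (-0.995, SE 0.19, adjusted p = 2.13e-04), with Tab1 and Map3k7, the gene of TAK1 itself. Tab2 was also the 1 gene of this list called at day 21, at 12.2 ± 2.48 (-0.76, SE 0.19, adjusted p = 0.0285), a call lost when any 1 of control replicates 2 to 5 and day 21 replicates 1, 2 and 5 was left out (adjusted p up to 0.0848). That call was also lost without the filter on low values (adjusted p = 0.0587) and with quantile normalization (0.0774). With FPKM rescaled to a common sum, the 3 lower calls at day 3 were lost, Map3k7 and Tab1 turned to 0.26 and 0.27 (adjusted p = 0.350 and 0.270), and Tab2 was called on neither day (-0.23 on day 3 with adjusted p = 0.454, and -0.56 on day 21 with adjusted p = 0.414).

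Of 18 tested genes for TNF release, receptors and signaling, 12 were higher and 1, Birc2, was lower at day 3 (median 0.52), the latter a call lost with a common sum (0.17, adjusted p = 0.474). Tnfrsf1b, the second TNF receptor, rose from 0.978 ± 0.245 to 10.2 ± 4.10 FPKM (log2 fold change 2.43, SE 0.40, adjusted p = 4.05e-05), and Ripk3, a kinase of necroptosis, from 0.582 ± 0.160 to 5.22 ± 1.96 (1.93, SE 0.29, adjusted p = 1.35e-05). Tnfrsf1a, Tradd, Traf2, Fadd, Casp8, Ripk1, Birc3, Mlkl, Adam17 and Ltb were the others called higher. By day 7 there were 5 higher (4 without day 7 replicate 5 alone), by day 14 Tnfrsf1a, Ripk3 and Mlkl, and 0 of 18 were called on day 21. Without replicate 5 of days 3 and 7, the higher calls on days 3, 7, 14 and 21 were 11, 5, 5 and 1 (Tradd), beside 23.8%, 12.4%, 11.6% and 2.52% of all tested genes.

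Of 10 tested genes of the inflammasome, 7 were higher and 2 lower at day 3 (median 0.85). At day 7 there were 3 higher over all muscles and 0 without day 7 replicate 5. Gsdmd, whose cut product forms pores in the membrane, rose from 2.73 ± 0.741 to 8.53 ± 2.02 (1.35, SE 0.30, adjusted p = 9.21e-04), and Ninj1, which carries out the rupture of the membrane, from 16.6 ± 2.83 to 49.0 ± 16.3 (1.45, SE 0.32, adjusted p = 7.58e-04). Casp4, P2rx7, Aim2, Naip5 and Mefv were also higher; Naip5 has close paralogs with which it may share reads. The 2 that fell act on Nlrp3, Txnip as a binding partner and Nek7 as a cofactor. Txnip went from 163 ± 30.4 to 66.2 ± 11.03 on day 3 and 81.1 ± 19.6 on day 21 (-1.01, SE 0.22, adjusted p = 0.0132 at day 21), and Nek7 from 18.4 ± 2.28 to 9.29 ± 1.65 and 10.99 ± 1.60 (-0.70, SE 0.17, adjusted p = 0.0230 at day 21). The day 21 call of Nek7 was lost with quantile normalization (adjusted p = 0.0565) and when any 1 of control replicates 2 and 4 and day 21 replicates 2 and 5 was left out (adjusted p up to 0.0735). They were the only genes of the list called at day 21, and both calls were lost with FPKM rescaled to a common sum (adjusted p = 0.0928 and 0.408). The same rescaling lost their day 3 calls, with Txnip at -0.47 (adjusted p = 0.0681) and Nek7 at -0.16 (adjusted p = 0.560).

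Of 14 tested NF-kB subunits and inhibitors, 4 were higher and 0 lower at day 3 (median 0.25). The share called higher lay near the 23.4% of all tested genes, of which 19.8% were called lower. At day 7 there were 2 higher, and 1 without day 7 replicate 5. Nfkb2, a subunit of the alternative branch, rose from 4.10 ± 1.08 to 14.5 ± 4.48 (1.58, SE 0.26, adjusted p = 3.92e-05) and was still at 9.004 ± 1.499 at day 21 (0.98, SE 0.26, adjusted p = 0.0345), a call lost with voom on the recovered reads (adjusted p = 0.0563) with FPKM rescaled to a common sum (0.266), and when any 1 of control replicates 2 to 5 and day 21 replicates 1, 2 and 4 was left out (up to 0.0966). Nfkbie, an inhibitor that NF-kB itself induces, rose from 0.317 ± 0.134 to 2.72 ± 1.34 (1.43, SE 0.26, adjusted p = 9.98e-05). Rela and Relb were the others.

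Of 12 tested genes known to respond to interleukin-1 and TNF, 10 were higher and 1, Sod2, lower at day 3 (median 0.95). The largest changes were in the monocyte chemokines Ccl7, from 0.283 ± 0.352 to 20.2 ± 7.20 FPKM (4.02, SE 0.61, adjusted p = 1.57e-05), and Ccl2, from 0.238 ± 0.232 to 10.1 ± 5.85 (3.02, SE 0.57, adjusted p = 1.68e-04). Mmp3, Mmp13, Ptges, Vcam1, Icam1, Lcn2, Saa3 and Cxcl5 were also higher. At day 3 the count was 8 without replicate 5 of days 3 and 7. By day 7 there were 7 higher (6 without day 7 replicate 5 alone, 7 without replicate 5 of days 3 and 7). By day 14 there were Mmp3 and Icam1, and 0 of 12 were called on day 21.

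**Figure D4:**
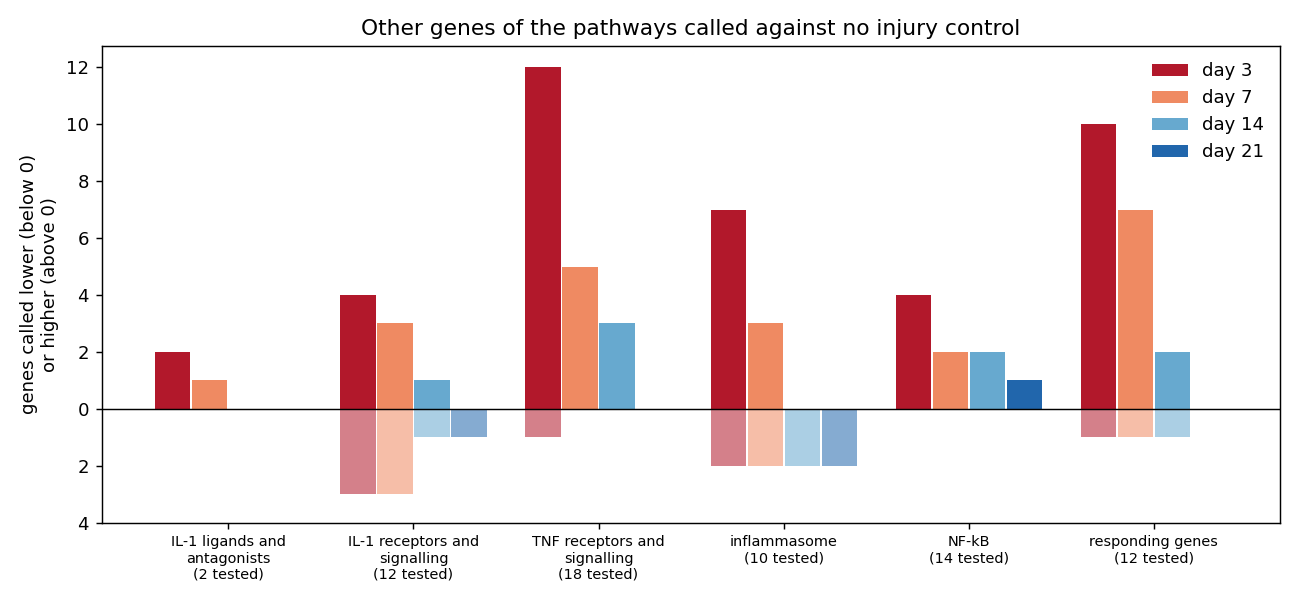
Number of tested genes of 6 pathway lists, without the 9 genes, called higher (bars above 0) or lower (paler bars below 0) than no injury control at each of 4 time points. Day 3 had the most genes called higher in every list, up to 12 of 18 for TNF receptors and signaling, and at day 21 Nfkb2 alone was called higher.

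Scaling bears on all of these changes, since FPKM had been set to a denominator of 0.747 to 1.48 times the recovered reads. This factor differed between the groups compared, with means of 0.782 in the controls and 1.247, 1.175, 1.045 and 0.897 at days 3, 7, 14 and 21. With median-ratio scaling, 3414 genes were called higher and 2899 lower at day 3, beside 3417 and 2899 in the main fit. With FPKM rescaled to a common sum, the median log2 fold change of all tested genes stood at 0.51, 0.48, 0.29 and 0.12 in order of time. On days 7, 14 and 21 the share of all tested genes called higher was 43.1%, 11.5% and 0.287%, and the share called lower 1.43%, 0.731% and 0.0478%. At day 3 these shares were 46.9% and 2.20%. Beside them, the genes of the lists called higher and lower at day 3 were 6 and 0 of 12 for IL-1 receptors, 15 and 0 of 18 for TNF, 8 and 0 of 10 for the inflammasome, 10 and 0 of 14 for NF-kB, and 10 and 1 of 12 for the responding genes. The higher calls of the IL-1 receptor list lay near the share of all tested genes. The differences of Il1b (1.35), Il1rn (1.24), Il1r1 (1.399), Il18 (2.14), Casp1 (2.19) and Pycard (2.27) at day 3 were well above the median of all tested genes. Those of Il1r2 (0.56) and the scarce Nlrp3 (0.38) were near it, but the log2(FPKM + 1) scale understates the change of such low genes. That of Tnf stayed below 0. Il1b shares 25 exonic bases with the antisense gene Il1bos and Pycard 485 with Gm45205, with which reads cannot be told apart in these libraries without strand; those genes had 7 and 21 reads in all.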

How the data were processed

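The authors sequenced poly(A) RNA in 27 muscles with libraries that did not keep the strand, and per the labels aligned the reads with HISAT2 2.0.5 and counted them per gene with featureCounts 1.5.0-p3. The authors deposited 1 table of FPKM with gene lengths. The methods state that FPKM was normalized, not how. FPKM times gene length gave whole reads (within 0.05 reads) for 100% of values in each sample, 14376395 to 24436763 reads per sample; counting intervals are exact, at 95%.

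Groups were read from sample titles. FPKM was transformed to log2(FPKM + 1), and limma 3.58.1 (R 4.3.3) was run on the 14630 genes that reached 0.5 in 5 samples or more, as 1 model of all 27 samples with a mean per group and a variance trend. Tests were two-sided, with Benjamini-Hochberg adjustment over all tested genes within each comparison and a threshold of 0.05. Single genes were also compared by exact permutation tests, and log2 ratios of FPKM + 0.1 by the same test, adjusted over 8. The fit was tested on simulated data.

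The 9 genes and the gene lists were chosen with earlier results of these data known. Beside the 9 genes, the text names the 2 genes of each pathway list with the largest change among those called at day 3 and at day 21, the 3 genes most correlated with each tested gene, and the called genes that make up a count. Of the lists, 2 genes were matched by an older symbol. Replicate numbers were not treated as pairs: deviations of same-numbered samples from their group means had a mean correlation of 0.02 over 51 pairs.

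Alternatives were pseudocounts of 0.1 and 0.5, no filter, an FPKM minimum of 1, a common sum, median-ratio scaling, quantile normalization, voom on the recovered reads, fits of 2 groups, a replicate block, and leaving out samples. Tables and figures were made with Python 3.11.15, pandas 2.3.3, scipy 1.17.1 and matplotlib 3.10.9.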

Additional observations from a re-analysis of the deposited data

Results flagged for a closer look

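Of 45 groups of values (9 genes in 5 groups), 9 had a highest or lowest muscle that stood apart from the others by Dixon's 95% criterion, where chance flags about 1 in 20. In 4 of them the muscle was day 7 replicate 5, at 9.18 FPKM for Il1b, 1.05 for Il1rn, 0.665 for Nlrp3 and 4.48 for Pycard. This muscle was nearest the day 3 mean over all tested genes and had a macrophage marker sum of 2943; the part of its cell content in these values was not tested.

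The other flags were at low levels. Nlrp3 stood apart at 0.0210 in control replicate 3, which was 1 read, at 0.215 in day 14 replicate 2 and at 0.177 in day 21 replicate 5. Il1rn stood apart at 0.0107, also 1 read, in day 21 replicate 1, and Il1r1 was low at 0.261 in day 21 replicate 4.

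The effect of injury at day 21 differed from that at day 3 for 4 genes by the test of the difference itself (limma, log2 scale). The differences were -1.05 for Il1r1 (adjusted p = 8.20e-04), -1.08 for Il18 (0.00914), -1.20 for Casp1 (0.0131) and -1.65 for Pycard (7.77e-05), with 5, 4, 3 and 5 of the 5 day 21 muscles below the lowest day 3 muscle.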

How the results depend on the processing

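Genes of the 9 called lower against the controls numbered 1 (Tnf) in place of 0 at day 3 with quantile normalization and in the fit of the 2 groups alone, and 1 (Tnf) at day 7 with quantile normalization. Higher calls at day 14 numbered 2 with pseudocounts of 0.1 and 0.5, in the fit of the 2 groups, without replicate 5 of days 3 and 7, and with the replicate block by number or letter (Casp1 at 0.96 with the replicate block by number), and 0 without the filter, with a common sum and with quantile normalization. Numbers did not pair the samples, and the replicate block moved no other count by over 1.5 times. Without replicate 5 of days 3 and 7, 4 were lower at day 7 than at day 3, beside 11.9% of all tested genes called lower and 3.53% higher. Leaving out 1 sample at a time gave 2 to 4 higher calls at day 7 (2 without day 7 replicate 5), 0 to 3 at day 14 (changed without control replicates 1 and 2, day 7 replicate 5 and day 14 replicates 2, 3 and 5), and 0 to 4 lower calls at day 7 against day 3 (4 without day 7 replicate 5, 1 without day 3 replicate 5). Without day 7 replicate 5, 11.7% of all tested genes were called higher at day 7 than in the controls, and 10.1% lower at day 7 than at day 3.

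Directions reversed for values that were not called, some near 0 and some ratios further from it. Il1r2 was at -0.033 at day 14 and -0.045 at day 21 with quantile normalization. Tnf at day 7 against day 3 was at -0.088 with voom, and at day 21 against day 3 at -0.155 and -0.011 with pseudocounts of 0.1 and 0.5, -0.060 with a common sum and -0.150 with voom. Over samples left out 1 at a time, Il1b ran from -0.012 to 0.127 and Il1r2 from -0.044 to 0.066 at day 21 against the controls, and Tnf from -0.025 to 0.131 at day 7 and from -0.072 to 0.058 at day 21 against day 3. The ratio of Il1b to Il1rn turned to -0.31 at day 3 with 0.01 added, 0.28 at day 7 with 1 added and -0.11 at day 3 without replicate 5 of days 3 and 7, and the ratio of Il1r2 to Il1r1 to 0.98, 0.18 and 0.32 at days 3, 7 and 14 with 0.01 added and 0.050 at day 3 without those replicates. Leaving out samples moved the former from -0.19 to 0.39 at day 3 and from -0.836 to 0.053 at day 7, and the latter from -0.405 to 0.086, -0.44 to 0.20 and -0.10 to 0.75 at days 3, 14 and 21. These causes were not tested.

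Depth limits Nlrp3, Tnf and Il1r2, with 263, 242 and 303 reads over 27 muscles. It also limits Il1rn (5, 16 and 1 reads) and Il1b (7, 55 and 21 reads) in the controls and at days 14 and 21. Small differences there were not detectable at this depth.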
